A study of Mus musculus with 27 samples.

Results

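The 9 genes described here belong to the Fanconi anaemia and homologous recombination pathways and were measured in mouse liver. They are Fanca, Fanci, Fancd2, Brca1, Brca2, Bard1, Rad51ap1, Blm and Exo1, taken by symbol through their Ensembl identifiers, and they make up 9 of the 55414 genes counted. The Fanconi anaemia pathway removes crosslinks that join both strands of DNA: a core complex attaches ubiquitin to the FANCI and FANCD2 clamp, which then recruits nucleases. Homologous recombination repairs the break that this leaves, by cutting back the DNA ends and copying the sister chromatid. Both pathways work mainly in cells that replicate their DNA, and an adult liver at rest holds few such cells.

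Liver RNA came from 27 female Balb/c mice, bought at 8 weeks of age. Fibrosis was induced with carbon tetrachloride (CCl4), a hepatotoxin injected in olive oil for 2 weeks. The study asked whether lowering hyaluronan changes this fibrosis, either with 4-methylumbelliferone (4MU), an inhibitor of hyaluronan synthesis gavaged daily at 600 mg/kg, or with siHAS2-LNP, lipid nanoparticles that carry siRNA against the hyaluronan synthase Has2. A nanoparticle with siRNA against luciferase (siLuc-LNP) served as the non-targeting control, and nanoparticles were given into the tail vein at 1 mg/kg first and 0.5 mg/kg later. All groups without CCl4 received olive oil. They were control, which also received PBS (4 mice), 4MU (3), siLuc-LNP (3) and siHAS2-LNP (3). The groups with CCl4 were CCl4 alone (2 mice) and CCl4 with a treatment (4 mice each), named CCl4 + 4MU, CCl4 + siHAS2-LNP and CCl4 + siLuc-LNP.

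Whole liver was homogenised, so every value is a mean over all cell types, and more dividing cells cannot be told apart from more RNA per cell. Libraries held 7044386 to 29425937 counts (the CCl4 mice 18249896 and 20087676), and CCl4 + siHAS2-LNP mouse 4 was the shallowest. The levels below are CPM, counts relative to library size, scaled by the TMM method of edgeR. Before that scaling, 3 counts correspond to 0.102 to 0.426 CPM. Hepatocyte marker genes summed to 72873 to 197086 CPM. Has2, the target of the siRNA, had 2 counts in CCl4 mouse 2, 1 count in CCl4 + siLuc-LNP mouse 4 and 0 counts in the other 25 libraries, so the knockdown could not be checked at this depth. For the 9 genes a pair of libraries stood apart: CCl4 mouse 2 had the highest level of all 27 mice for 9 of the 9 genes, and CCl4 + siLuc-LNP mouse 4 had the second highest for 9 of 9. Calls of the 9 genes that rest on these libraries are given with and without them. Calls in the other gene lists are given with all 27 mice only. Over all genes with enough counts, CCl4 + siLuc-LNP mouse 3 differed most from its group. The chi-square of counts per degree of freedom was 319 to 416 in its pairs, against 68.1 to 120 in the other pairs of that group.

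The genes lie on 6 chromosomes of GRCm39. Fanca (ENSMUSG00000032815), which encodes a scaffold of the core complex, lies on the minus strand of chromosome 8 from 123993038 to 124045331. Fanci (ENSMUSG00000039187), on the plus strand of chromosome 7 from 79041677 to 79100027, and Fancd2 (ENSMUSG00000034023), on the plus strand of chromosome 6 from 113508412 to 113573982, together encode the ubiquitinated clamp. Brca1 (ENSMUSG00000017146), on the minus strand of chromosome 11 from 101379577 to 101442781, and Bard1 (ENSMUSG00000026196), on the minus strand of chromosome 1 from 71066657 to 71142305, encode a ubiquitin ligase heterodimer that promotes end resection. Brca2 (ENSMUSG00000041147), on the plus strand of chromosome 5 from 150446057 to 150496080, encodes a mediator of homologous recombination. Rad51ap1 (ENSMUSG00000030346), on the minus strand of chromosome 6 from 126899446 to 126916587, encodes a protein that promotes strand invasion. Blm (ENSMUSG00000030528), on the minus strand of chromosome 7 from 80104481 to 80184899, encodes the helicase that dissolves joined DNA molecules. Exo1 (ENSMUSG00000039748), on the plus strand of chromosome 1 from 175708143 to 175741055, encodes an exonuclease that resects DNA ends. Fanci and Blm are neighbours at this scale, 1.00 Mb apart on chromosome 7.

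The promoters of 3 of these genes are shown as a contrast: Bard1 and Fanci rose with CCl4, and Brca2 did not pass the test. Each window runs from 250 bases before to 50 bases from the start of the canonical transcript, in the direction of the gene, read from the GRCm39 reference and not from the Balb/c genome. The windows are chr1:71142256-71142555 (Bard1, minus strand), chr5:150445825-150446124 (Brca2, plus strand) and chr7:79041804-79042103 (Fanci, plus strand). Capitals mark exact matches, on either strand, to an E2F site, the element bound by the regulators of S phase genes (searched as TTTCCCGC, TTTCGCGC, TTTGCCGC and TTTGGCGC), or to a CCAAT box (searched as CCAAT). These motifs do not overlap in the windows.
Bard1: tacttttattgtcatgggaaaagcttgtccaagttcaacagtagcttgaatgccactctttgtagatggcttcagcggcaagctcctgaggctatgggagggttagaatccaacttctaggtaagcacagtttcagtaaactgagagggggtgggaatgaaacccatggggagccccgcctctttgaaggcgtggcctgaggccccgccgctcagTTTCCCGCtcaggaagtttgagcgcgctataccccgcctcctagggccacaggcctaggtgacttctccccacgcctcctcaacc
Brca2: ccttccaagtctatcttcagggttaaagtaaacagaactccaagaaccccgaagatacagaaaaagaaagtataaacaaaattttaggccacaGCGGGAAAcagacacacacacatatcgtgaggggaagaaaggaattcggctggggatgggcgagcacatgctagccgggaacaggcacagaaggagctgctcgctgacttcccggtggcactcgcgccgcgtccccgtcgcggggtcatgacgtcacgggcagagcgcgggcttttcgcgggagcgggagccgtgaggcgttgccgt
Fanci: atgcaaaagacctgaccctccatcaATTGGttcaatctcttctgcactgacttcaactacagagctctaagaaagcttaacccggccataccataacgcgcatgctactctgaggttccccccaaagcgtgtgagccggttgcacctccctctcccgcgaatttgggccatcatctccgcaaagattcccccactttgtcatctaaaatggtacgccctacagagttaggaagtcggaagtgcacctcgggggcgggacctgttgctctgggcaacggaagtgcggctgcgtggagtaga

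An exact E2F site stood in 2 of the 9 windows, Bard1 at position -35 and Brca2 at position -157 from the start, against 2.77% of 21627 promoters of protein-coding genes. A CCAAT box stood in 5 of 9, of which 4 rose with CCl4 and 1 did not pass the test, against 39.9% of all promoters. The element TTTGAA of cell cycle genes stood in the Bard1 window and in 17.1% of promoters. The E2F site was thus held by 1 gene that rose with CCl4 and by 1 that did not pass the test. A missing match says only that these exact letters are absent from the window.

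In livers without CCl4 the 9 genes differed widely in level. Per kilobase of canonical transcript, Blm was the highest in control mice at 1.85 ± 0.27 CPM (SD, n = 4), followed by Brca2 at 0.520 ± 0.083 and Brca1 at 0.399 ± 0.168. Fanca, Rad51ap1, Fancd2 and Bard1 lay between 0.0462 and 0.0834 CPM per kilobase, and Fanci and Exo1 at 0.00720 and 0.00593. Blm lay above all others in every control mouse. The ranges of Brca2 and Brca1 overlapped, as did those of Fanca, Rad51ap1, Fancd2 and Bard1 and those of Fanci and Exo1. Fanci had 0 or 1 count in each control library and Exo1 0 to 2, at or under the limit of 3 counts.

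**Figure D1:**
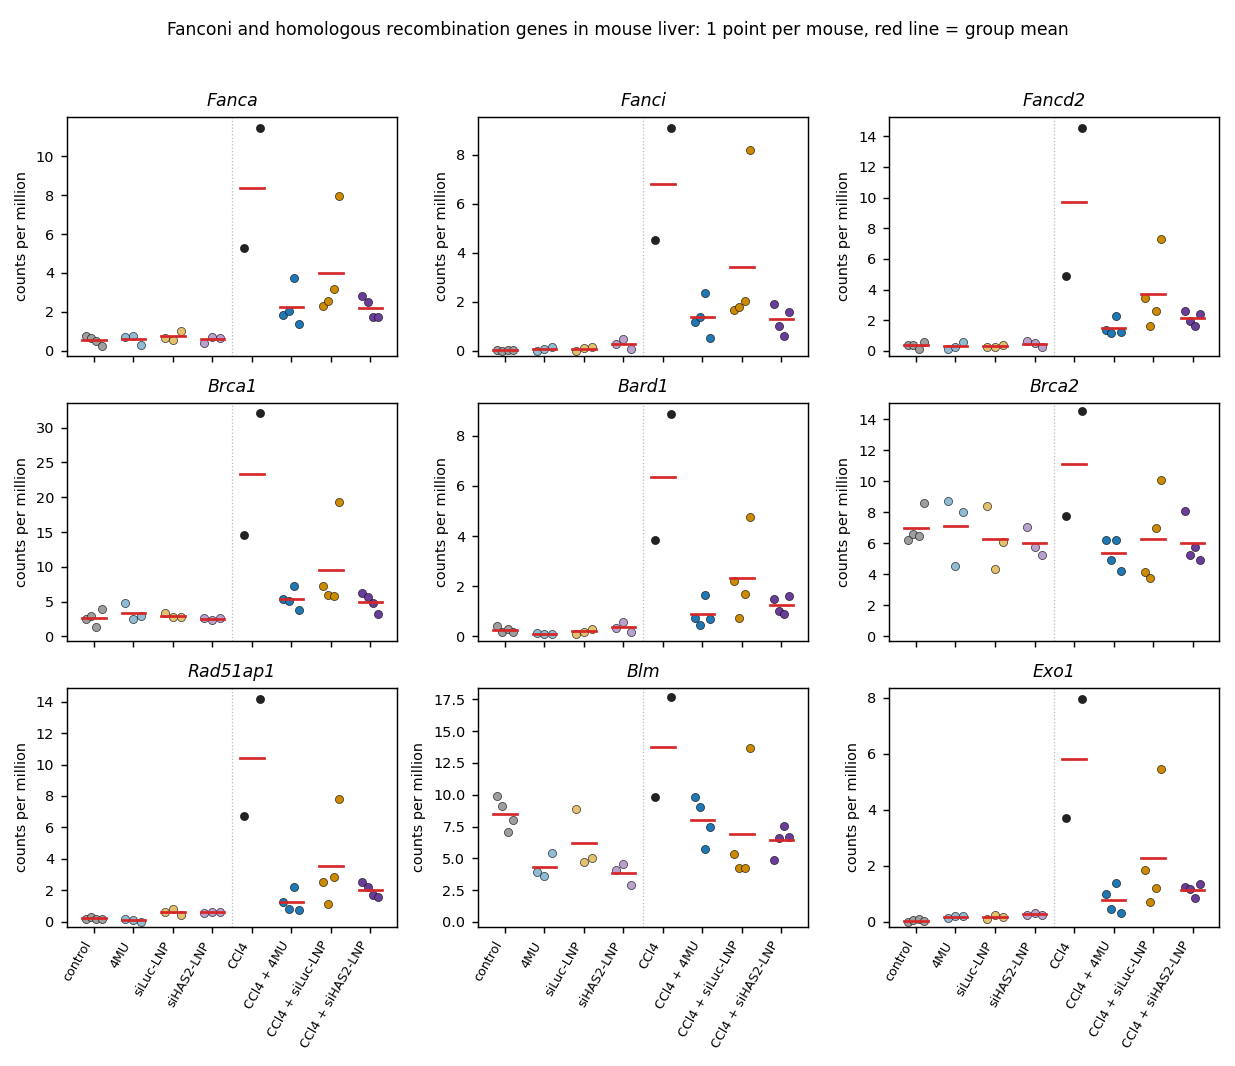
CPM of each of the 9 genes (y axis, linear, each panel with its own scale) in the 8 groups (x axis). Each point is 1 mouse and the red line is the group mean. The highest point is CCl4 mouse 2 in every panel, and the single high point of the CCl4 + siLuc-LNP group is mouse 4, which reached 19.3 CPM for Brca1 against 5.82 to 7.20 in the other mice of its group.

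CCl4 raised 7 of the 9 genes, against 18% of the 14114 genes tested that were higher. The genes of the Fanconi clamp and core, of the BRCA1 and BARD1 ligase, of strand invasion and of end resection were among them, and Brca2 and Blm were not. The count filter averaged over all 27 mice, so genes high only with CCl4 could pass it through those mice. In a fit of 4MU and control mice alone, 4 of the 9 passed it. The 9 genes were also chosen with earlier results of these data known, so the comparison with 18% is a description. Brca1 was at 2.44, 2.95, 1.28 and 3.96 CPM in the control mice and at 14.6 and 32.1 CPM in the CCl4 mice. Both CCl4 mice were above every control mouse, and the log2 fold change was 3.13 ± 0.41 (standard error, with adjusted p = 3.03e-06, edgeR's quasi-likelihood test). Each ± after a fold change is a standard error. It was computed as the size of the log2 fold change divided by the square root of the F statistic of that test. Its partner Bard1 was at 0.163 to 0.407 CPM in control mice and at 3.84 and 8.88 CPM in CCl4 mice (log2 fold change 4.58 ± 0.57, adjusted p = 1.35e-06).

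The Fanconi genes rose together. Fancd2 was at 0.407, 0.413, 0.128 and 0.572 CPM in control mice and at 4.91 and 14.5 CPM in CCl4 mice. Its groups did not overlap, and its log2 fold change was 4.66 ± 0.54 (adjusted p = 4.09e-07). Fanca was at 0.245 to 0.763 CPM and then at 5.30 and 11.4 CPM, a log2 fold change of 3.97 ± 0.48 (adjusted p = 9.49e-07). Fanci, with 3 counts at most in every control library, was at 4.52 and 9.07 CPM in the CCl4 mice, at least 46.9-fold higher when 3 counts per control library are taken as the limit (adjusted p = 5.40e-07).

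The other risers were the strand invasion gene and the exonuclease. Rad51ap1 was at 0.153 to 0.295 CPM in control mice and at 6.71 and 14.1 CPM in CCl4 mice (log2 fold change 5.57 ± 0.59, adjusted p = 1.03e-07). Exo1 was at 3.69 and 7.94 CPM in CCl4 mice, at least 40.1-fold higher than the control limit (adjusted p = 1.57e-07). The median log2 fold change of the 9 genes was 4.58, also with Fanci and Exo1 set to these bounds, beside -0.02 over all genes tested. For 7 genes both CCl4 mice lay above all control mice, which held for 25.7% of all genes tested.

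Brca2 and Blm behaved differently. Brca2 was at 6.20, 6.60, 6.49 and 8.62 CPM in control mice and at 7.73 and 14.5 CPM in CCl4 mice, so CCl4 mouse 1 lay within the control range. Its log2 fold change was 0.68 ± 0.33 (adjusted p = 0.121). Blm was at 9.92, 9.08, 7.04 and 8.01 CPM in control mice and at 9.82 and 17.6 CPM in CCl4 mice, with a log2 fold change of 0.70 ± 0.36 (adjusted p = 0.139). In both, the higher value belonged to CCl4 mouse 2. Without CCl4 mouse 1, Brca2 passed the test, and 8 of the 9 genes were then called. Without CCl4 mouse 2, 7 were called.

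The order of the genes changed with CCl4. Per kilobase, Rad51ap1 was the highest of the 9 in CCl4 mice at 3.69 CPM, followed by Brca1 at 3.51 and Blm at 2.98, and Brca2 and Exo1 were the lowest at 0.83 and 0.746. Levels of the 2 CCl4 mice were so far apart that the ranges of neighbours in this order overlapped. Rad51ap1, which stood in the middle of the order in control mice, had moved above Blm.

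Each treated arm was also compared with the same treatment without CCl4. CCl4 + siLuc-LNP against siLuc-LNP raised 7 of the 9 genes (13% of all genes tested were higher), CCl4 + 4MU against 4MU raised 6 (13.2%) and CCl4 + siHAS2-LNP against siHAS2-LNP raised 6 (7.74%). By edgeR, Fanca, Fanci, Fancd2, Bard1, Rad51ap1 and Exo1 passed in all 3, and Brca1 passed in the siLuc-LNP arm. With limma-voom 8 of the 9 were called in the 4MU arm and 8 in the siHAS2-LNP arm, Brca1 and Blm included. DESeq2 called 7 and 6, with Blm added in the 4MU arm. These comparisons share no mice with each other or with CCl4 against control. The median log2 fold changes of the 9 genes were 2.54, 2.07 and 1.74, beside medians between -0.03 and 0.03 over all genes.

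Fancd2 shows the range. It was at 0.286, 0.285 and 0.395 CPM in siLuc-LNP mice and at 3.44, 1.66, 2.58 and 7.27 CPM in CCl4 + siLuc-LNP mice (log2 fold change 3.51 ± 0.57, adjusted p = 7.67e-05). It was at 0.102, 0.273 and 0.607 CPM in 4MU mice and at 1.38, 1.20, 2.29 and 1.24 CPM in CCl4 + 4MU mice (2.22 ± 0.57, adjusted p = 0.00614). It was at 0.646, 0.518 and 0.239 CPM in siHAS2-LNP mice and at 2.62, 1.95, 1.60 and 2.4 CPM in CCl4 + siHAS2-LNP mice (2.13 ± 0.54, adjusted p = 0.0102). In all 3 arms every CCl4 mouse lay above every mouse without CCl4. Fanci and Bard1 had at most 3 counts in each 4MU library, and were at least 9.68-fold and 6.31-fold higher in CCl4 + 4MU mice.

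Brca1 was the riser with the smallest change. It was at 3.31, 2.79 and 2.85 CPM in siLuc-LNP mice and at 7.20, 6.01, 5.82 and 19.3 CPM with CCl4, a log2 fold change of 1.69 ± 0.40 (adjusted p = 0.00344). With 4MU it was at 4.86, 2.46 and 2.88 CPM without CCl4 and at 5.42, 5.13, 7.24 and 3.80 CPM with it, which overlapped, and the log2 fold change was 0.67 ± 0.39 (adjusted p = 0.225). With siHAS2-LNP it was at 2.62, 2.4 and 2.63 CPM and then at 6.26, 5.61, 4.81 and 3.20 CPM, without overlap, and the log2 fold change was 0.99 ± 0.41 (adjusted p = 0.112). Brca2 had log2 fold changes of -0.39, -0.0045 and 0.01 in the 4MU, siLuc-LNP and siHAS2-LNP arms (standard error 0.31 in each), with adjusted p of 0.379, 0.993 and 0.994. Blm had 0.89, 0.16 and 0.73 (standard errors 0.34, 0.33 and 0.35), with adjusted p of 0.0604, 0.773 and 0.178. Every mouse with CCl4 lay above every mouse without it for Blm in the 4MU and siHAS2-LNP arms, but not in the siLuc-LNP arm. This held for 18.3% and 15.2% of all genes in the 4MU and siHAS2-LNP arms.

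The siHAS2-LNP arm gave the least stable count. Leaving out each of its 7 mice in turn left 1 to 5 genes called: 1 without siHAS2-LNP mouse 1 or 3, 2 without siHAS2-LNP mouse 2 or CCl4 + siHAS2-LNP mouse 1 or 2, 3 without CCl4 + siHAS2-LNP mouse 4, and 5 without CCl4 + siHAS2-LNP mouse 3. In the siLuc-LNP arm 7 were called whichever mouse was left out, CCl4 + siLuc-LNP mouse 4 included, and in the 4MU arm 5 or 6.

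**Figure D2:**
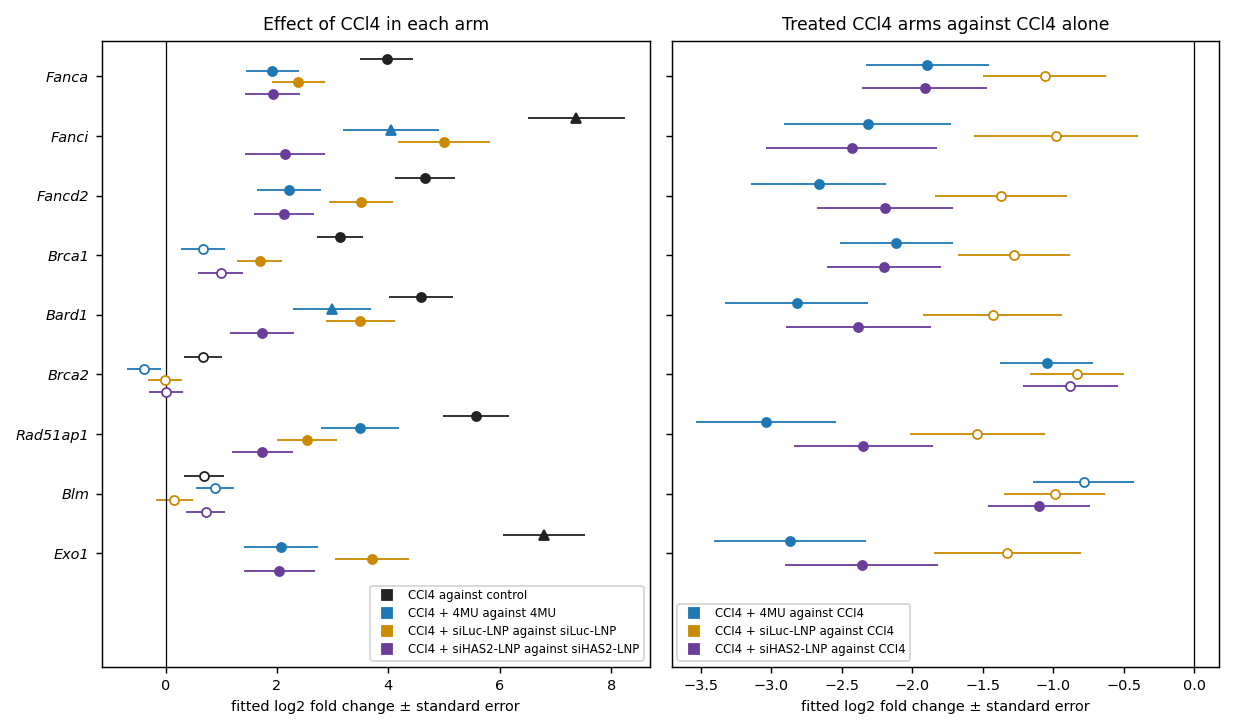
Fitted log2 fold changes with standard errors (x axis) of the 9 genes (y axis), for CCl4 in each arm (left) and for the treated CCl4 groups against CCl4 alone (right). Filled symbols passed an adjusted p of 0.05, open symbols did not, and triangles mark genes with at most 3 counts in every library of the comparison group, whose fitted values depend on the prior count. On the left 7, 6, 7 and 6 genes are filled for CCl4, 4MU, siLuc-LNP and siHAS2-LNP, and on the right 8, 0 and 8 for 4MU, siLuc-LNP and siHAS2-LNP.

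Among mice with CCl4, treated groups were compared with CCl4 alone, and the 3 comparisons share the 2 CCl4 mice. In CCl4 + 4MU mice 8 of the 9 genes were lower (10% of all genes tested were lower), and in CCl4 + siHAS2-LNP mice 8 were lower (7.33%). Hepatocyte markers (4 of 7 higher with 4MU) and stellate markers (3 of 6 lower with siHAS2-LNP) moved in the same comparisons, and their part was not tested. In CCl4 + siLuc-LNP mice edgeR called 0 of the 9 (0.248% of all genes were called in either direction). DESeq2 also called 0 there, limma-voom called 6, and 8 had an unadjusted p under 0.05. The median log2 fold changes of the 9 genes were -2.32, -2.20 and -1.28, beside 0.04, 0.02 and 0.01 over all genes. All 9 were lower in each CCl4 + 4MU mouse than in either CCl4 mouse, 8 in each CCl4 + siHAS2-LNP mouse, and 0 without overlap in CCl4 + siLuc-LNP, where 21.5%, 18.8% and 7.32% of all genes lay wholly below. For Blm with 4MU the gap was narrow, 9.80 CPM in CCl4 + 4MU mouse 1 against 9.82 CPM in CCl4 mouse 1.

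Brca1, at 14.6 and 32.1 CPM with CCl4 alone, was at 5.42, 5.13, 7.24 and 3.80 CPM with 4MU, a log2 fold change of -2.11 ± 0.40 (adjusted p = 0.00147). It was at 6.26, 5.61, 4.81 and 3.20 CPM with siHAS2-LNP, a log2 fold change of -2.20 ± 0.41 (adjusted p = 0.00173). With siLuc-LNP it was at 7.20, 6.01, 5.82 and 19.3 CPM, a log2 fold change of -1.28 ± 0.40 (adjusted p = 0.136). Of the siLuc-LNP mice, 3 lay below both CCl4 mice and mouse 4 lay between them.

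Rad51ap1 had the largest fitted fall with 4MU. From 6.71 and 14.1 CPM it went to 1.29, 0.797, 2.22 and 0.746 CPM with 4MU, a log2 fold change of -3.04 ± 0.50 (adjusted p = 0.000706). With siHAS2-LNP it was at 2.54, 2.19, 1.72 and 1.60 CPM, a log2 fold change of -2.35 ± 0.49 (adjusted p = 0.00374). With siLuc-LNP it was at 2.50, 1.12, 2.88 and 7.79 CPM, a log2 fold change of -1.54 ± 0.48 (adjusted p = 0.135). Leaving aside Brca2 and Blm, the other genes had log2 fold changes from -2.87 (Exo1) to -1.89 (Fanca) with 4MU and from -2.43 (Fanci) to -1.91 (Fanca) with siHAS2-LNP.

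With 4MU and with siHAS2-LNP, Brca2 and Blm had the smallest changes. Brca2 was at 6.23, 4.93, 6.20 and 4.19 CPM with 4MU against 7.73 and 14.5 CPM with CCl4 alone, a log2 fold change of -1.05 ± 0.33 (adjusted p = 0.0305), and its log2 fold change with siHAS2-LNP was -0.88 ± 0.34 (adjusted p = 0.0771). Blm was at 4.85, 6.58, 7.57 and 6.67 CPM with siHAS2-LNP against 9.82 and 17.6 CPM, a log2 fold change of -1.10 ± 0.36 (adjusted p = 0.0423), and its log2 fold change with 4MU was -0.78 ± 0.36 (adjusted p = 0.124). Mice without CCl4 ranged from 4.33 to 8.75 CPM for Brca2 and from 2.93 to 9.92 CPM for Blm, and the CCl4 + 4MU and CCl4 + siHAS2-LNP mice lay within these ranges, save for CCl4 + 4MU mouse 4 at 4.19 CPM for Brca2.

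The number of calls against CCl4 alone depended on CCl4 mouse 2. A fit without either CCl4 mouse has 1 mouse in that arm, which is assumed to vary like the other groups. Without CCl4 mouse 2, whose levels were 1.80 to 2.96 times those of mouse 1, edgeR called 1 of the 9 genes (Rad51ap1) with 4MU and 0 with siHAS2-LNP. The 9 log2 fold changes were all still below 0, with medians of -1.71 and -1.56, and 7 had an unadjusted p under 0.05 in each. Over all genes, the number called fell as well, from 2580 to 184 with 4MU and from 2038 to 108 with siHAS2-LNP. Without CCl4 mouse 1 it called 8 and 9. Without CCl4 + siLuc-LNP mouse 4, it called 9 of 9 lower in CCl4 + siLuc-LNP mice, where it had called 0, and 1076 of all genes in place of 35. The calls for the non-targeting nanoparticle thus turned on a single library.

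**Figure D3:**
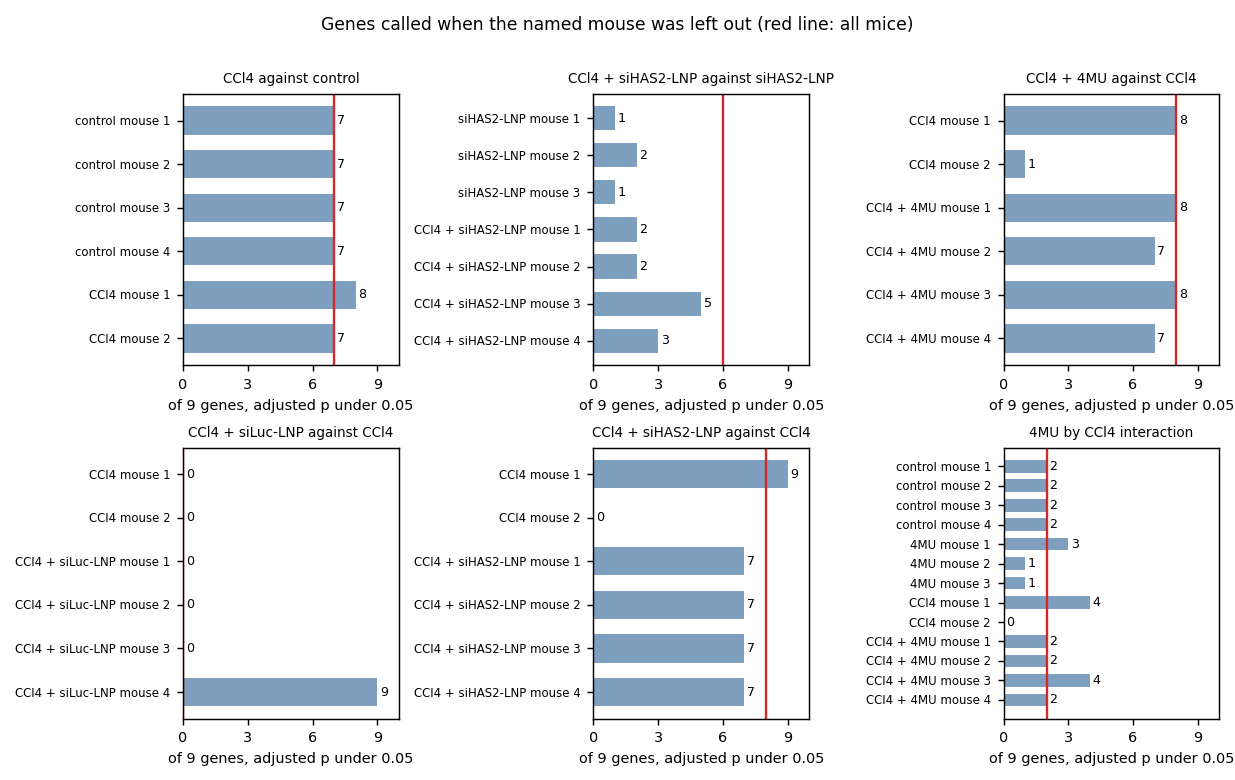
Number of the 9 genes called by edgeR (x axis) when the mouse named on the y axis was left out of the fit, for 6 comparisons. The red line is the number with all mice, which is 7, 6, 8, 0, 8 and 2 in the order of the panels. Bars fall to 1 and 0 without CCl4 mouse 2 in the 4MU and siHAS2-LNP comparisons with CCl4, and rise to 9 without CCl4 + siLuc-LNP mouse 4.

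The siRNA itself was judged against siLuc-LNP among CCl4 mice. edgeR called 0 of the 9 genes (1.09% of all genes were called in either direction), DESeq2 and limma-voom 0, and 5 had an unadjusted p under 0.05. All 9 fitted log2 fold changes were below 0 (those of Brca2 and Blm turned above 0 with limma-voom or the replicate block), from -1.45 ± 0.54 for Fanci (adjusted p = 0.167) to -0.05 ± 0.29 for Brca2 (adjusted p = 0.964). Fanci was at 1.92, 1.02, 0.601 and 1.60 CPM with siHAS2-LNP and at 1.68, 1.77, 2.04 and 8.17 CPM with siLuc-LNP, and the groups overlapped, as they did for each of the 9 genes. These values rest in large part on CCl4 + siLuc-LNP mouse 4: without it the median log2 fold change of the 9 genes was -0.28 in place of -0.85, that of Fanci was -0.56, 2 genes were above 0, and 0 had an unadjusted p under 0.05. 4MU was set against siHAS2-LNP in the same way: 0 of the 9 were called (1.22%) by edgeR, DESeq2 and limma-voom, 0 had an unadjusted p under 0.05, and all 9 overlapped.

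Whether 4MU changed the response to CCl4 was tested as an interaction, which compares the CCl4 change in 4MU mice with that in mice without 4MU and uses the 2 CCl4 mice. It called 2 of the 9 genes (5.67% of all genes). The CCl4 change of Brca1 was smaller with 4MU by 2.46 on the log2 scale (interaction -2.46 ± 0.57, adjusted p = 0.0217). That of Exo1 was smaller too (interaction -4.71 ± 1.13, adjusted p = 0.0241), with a size that depends on the prior count, since control mice had at most 2 counts. Fancd2 (-2.45 ± 0.82, adjusted p = 0.0693) and Fanca (-2.05 ± 0.69, adjusted p = 0.0717) did not pass. Without CCl4 mouse 2, 0 were called, 1 without 4MU mouse 2 or 3, and 4 without CCl4 mouse 1 or CCl4 + 4MU mouse 3. The interaction of siHAS2-LNP with CCl4, relative to siLuc-LNP, called 0 of 9 (0.0354%) by edgeR, DESeq2 and limma-voom, with 1 unadjusted p under 0.05.

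Without CCl4, the treatments gave no call among the 9 genes by edgeR, DESeq2 or limma-voom, but some had too few counts to show much: Fanci had 0 to 10 counts and Exo1 0 to 7 in these mice. In fits of the compared groups alone, 4 (4MU), 4 (siLuc-LNP) and 5 (siHAS2-LNP) of the 9 passed the count filter. Of 4MU against control 0 were called (0.00709%), with 1 unadjusted p under 0.05, of siLuc-LNP against control 0 (0.213%), with 1, and of siHAS2-LNP against siLuc-LNP 0 (0.0425%), with 0. Blm gave the unadjusted p under 0.05 for 4MU: it was at 3.94, 3.59 and 5.41 CPM with 4MU and at 9.92, 9.08, 7.04 and 8.01 CPM in control mice, without overlap, as was the case for 4.29% of all genes in this direction. It was at 4.12, 4.52 and 2.93 CPM with siHAS2-LNP and at 8.91, 4.72 and 5.05 CPM with siLuc-LNP. Rad51ap1 gave it for siLuc-LNP, at 0.628, 0.797 and 0.439 CPM against 0.153 to 0.295 CPM in control mice.

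Other genes of these pathways were partly called. In CCl4 against control, 6 of the 13 other core complex genes tested were higher and 0 lower (median log2 fold change 0.46). They included Fancb, a core subunit, at 9.23 CPM against 0.777 (log2 fold change 3.54 ± 0.52, adjusted p = 1.20e-05), and Ube2t, the enzyme that passes ubiquitin to the clamp, at 5.43 against 0.532 CPM (3.34 ± 0.44, adjusted p = 2.53e-06). Of 8 other genes of BRCA1 complexes 3 were higher and 0 lower (median 0.15), among them Palb2, which joins BRCA1 to BRCA2, at 2.66 against 0.665 CPM (1.98 ± 0.35, adjusted p = 0.000119). Of 7 other genes of the BLM complex and the junction resolvases 4 were higher and 0 lower (median 0.83), and Rmi2, a subunit of the BLM complex, was at 6.26 against 0.158 CPM (5.29 ± 0.59, adjusted p = 2.62e-07). Rmi2 thus rose while Blm did not pass the test.

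Of 8 other genes of the clamp, its deubiquitinase and the nucleases 4 were higher and 0 lower (median 0.56), and of 6 other end resection genes 3 were higher and 0 lower (median 0.45). Eme1, a subunit of a junction nuclease, was at 3.90 against 0.158 CPM (log2 fold change 4.61 ± 0.65, adjusted p = 8.27e-06), and Mre11a, a nuclease that starts resection, at 17.0 against 6.45 CPM (1.40 ± 0.27, adjusted p = 0.000325). Fan1, another crosslink nuclease, was at 3.96 against 3.22 CPM (0.30 ± 0.30, adjusted p = 0.468). In CCl4 + 4MU against CCl4, 5 of the 13 core complex genes and 3 of the 8 genes of BRCA1 complexes were lower, and in CCl4 + siHAS2-LNP against CCl4 3 and 2 were. Of the 8 clamp and nuclease genes 1 was higher and 2 lower with 4MU and 0 and 2 with siHAS2-LNP, of the 7 BLM complex and resolvase genes 1 and 3, and 0 and 2, and of the 6 resection genes 0 and 2, and 0 and 1. In CCl4 + siLuc-LNP against CCl4, 0 genes of these 5 lists were called by edgeR.

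**Figure D4:**
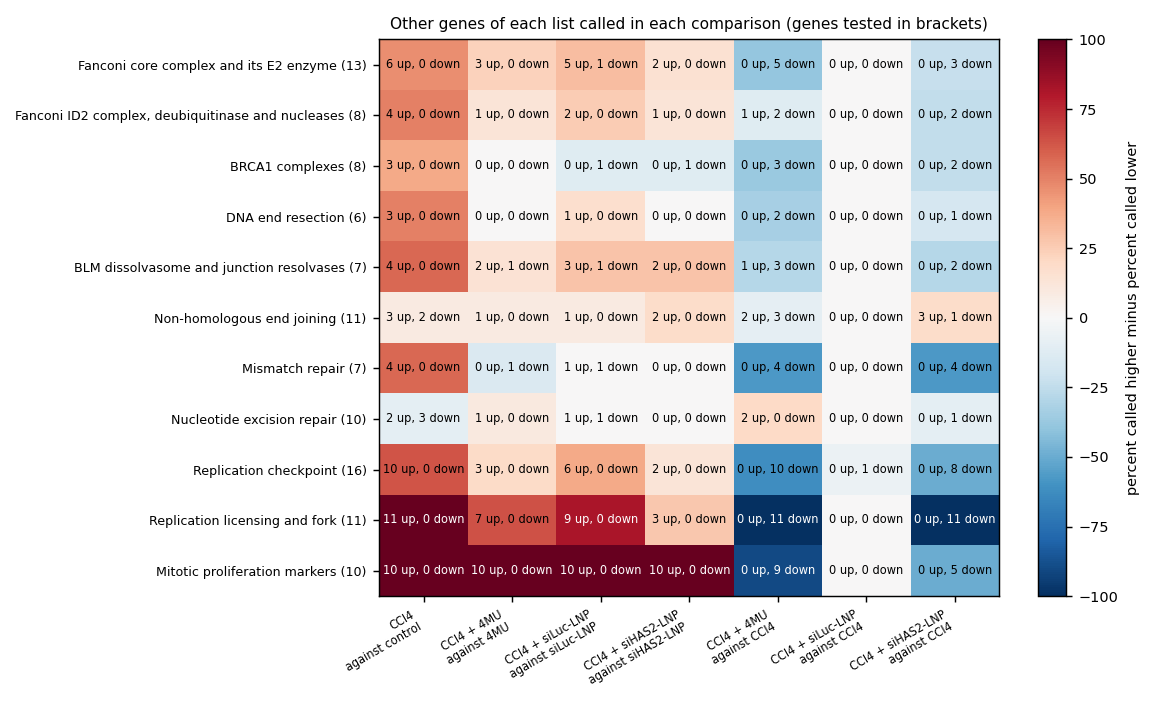
Other genes of 11 lists (y axis, genes tested in brackets, the 9 genes left out) called higher or lower in 7 comparisons (x axis). Colour gives the percent called higher minus the percent called lower. The replication licensing and fork genes (11 of 11) and the mitotic markers (10 of 10) are all higher with CCl4, and the repair lists are paler.

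Cell cycle genes moved with the 9 genes. All 11 replication licensing and fork genes were higher in CCl4 against control (median log2 fold change 3.59), 11 of 11 were lower in CCl4 + 4MU and 11 of 11 in CCl4 + siHAS2-LNP against CCl4. Of 16 replication checkpoint genes 10 were higher with CCl4 and 0 lower (median 1.40), and Chek1, the checkpoint kinase of S phase, was at 11.7 against 0.636 CPM. All 10 mitotic markers were higher with CCl4 (median 5.65), 9 were lower with 4MU and 5 with siHAS2-LNP. Mki67, the most used proliferation marker, was at 2.36 to 5.80 CPM in control mice, at 102 and 209 CPM in CCl4 mice and at 15.4 to 82.6, 63.3 to 207 and 63.5 to 74.5 CPM in the CCl4 groups given 4MU, siLuc-LNP and siHAS2-LNP. Its value of 207 CPM was that of CCl4 + siLuc-LNP mouse 4. The part of cell division in the levels of the 9 genes was not tested.

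Set beside the licensing and fork genes, the level of the 7 risers varied less among the 14 CCl4-treated mice than it did alone. Their summed level was 43.6 and 98.0 CPM in CCl4 mice, and 8.74 to 20.9, 14.5 to 60.7 and 12.2 to 18.9 CPM in the CCl4 groups given 4MU, siLuc-LNP and siHAS2-LNP. Expressed as a percent of the summed CPM of the licensing and fork genes, this was 9.29% and 10.4%, 8.52% to 9.77%, 9.63% to 12.5% and 8.70% to 10.9%. The lowest and the highest of the 14 CCl4 mice were thus close on this scale, whereas their summed levels ranged from 8.74 to 98.0 CPM. The percent was not the same without CCl4. It was 3.54% to 8.12% in control mice, 6.25% to 11.2% with 4MU, 5.64% to 7.25% with siLuc-LNP and 5.05% to 6.07% with siHAS2-LNP. Against the mitotic markers the percents were 11.0% and 13.1% in CCl4 mice, 6.71% to 13.4% with 4MU, 5.77% to 9.60% with siLuc-LNP and 5.26% to 7.21% with siHAS2-LNP, so neither nanoparticle group overlapped the mice with CCl4 alone. Without CCl4 the percents against the mitotic markers were 19.2% to 52.7% in control mice and 63.1% to 198% with 4MU. They were 23.1% to 37.8% with siLuc-LNP and 14.5% to 18.3% with siHAS2-LNP. The 7 genes were picked by their calls and share libraries with both lists, so these percents are a description.

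**Figure D5:**
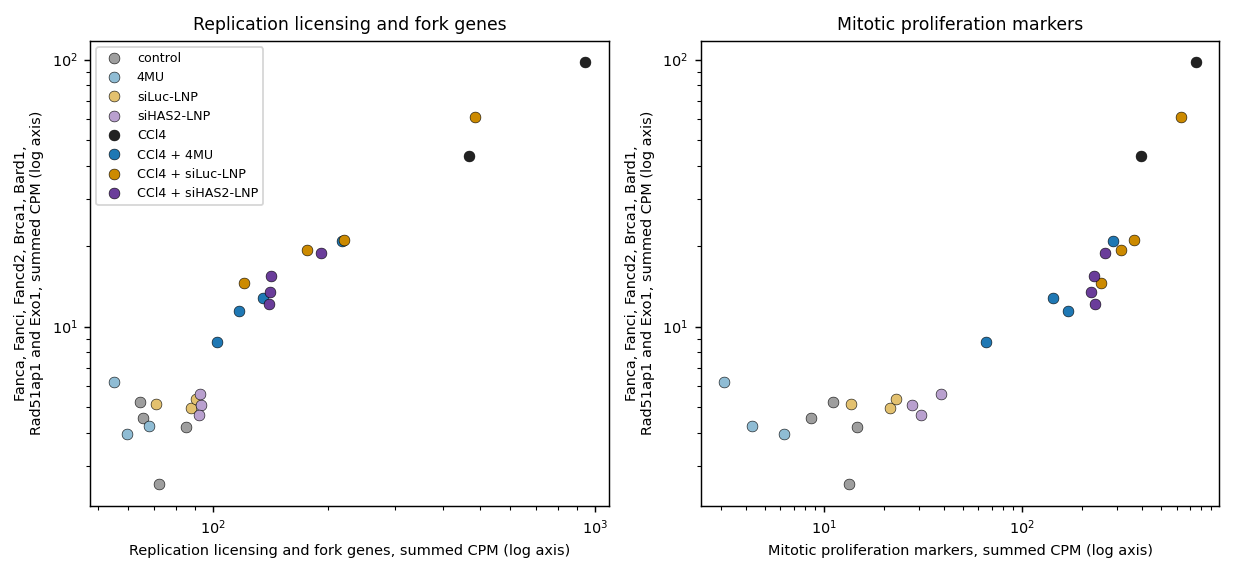
Summed CPM of the 7 genes that rose with CCl4 (y axis, log scale) against the summed CPM of the replication licensing and fork genes (left) and of the mitotic markers (right, both x axes log scale), 1 point per mouse. CCl4 mice and CCl4 + siLuc-LNP mouse 4 lie at the upper right, and the 13 mice without CCl4 at the lower left with summed levels of 2.56 to 6.19 CPM.

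Over the 27 mice, the mean standardised log2 CPM of the 9 genes had among its highest Pearson correlations with Slfn9 (0.979), Rrm1 (0.970), Hells (0.964), Chaf1a (0.964), Ncapg2 (0.962), Rmi2 (0.962), Atad2 (0.962), Lig1 (0.957) and Lmnb1 (0.956). Rrm1 makes DNA precursors, Chaf1a assembles chromatin on new DNA and Lig1 joins lagging strand fragments. Of the 9 genes, 7 had a correlation of 0.919 to 0.952 with their own mean, Blm 0.606 and Brca2 0.445. Each of the 9 genes is part of that mean, which raises its own correlation. The genes share libraries, and the mice are divided by CCl4, so these values carry no test.

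Markers of other cells moved as well. Stellate cell and myofibroblast markers summed to 41.6 to 76.1 CPM in control mice and to 403 and 656 CPM in CCl4 mice, with 5 of 6 markers higher and 0 lower. The hepatocyte markers were at 158541 to 197086 CPM in control mice and at 128017 and 72873 CPM in CCl4 mice, the lower value in CCl4 mouse 2, with 4 of 7 lower. Macrophage and monocyte markers were at 232 to 401 CPM and 336 to 371 CPM, with 4 of 7 higher. CCl4 + siLuc-LNP mouse 4 had the lowest hepatocyte sum of its group (104295 CPM) and a stellate sum of 478 CPM, within the range of its group. Of the other lists, CCl4 raised 2 of 5 endothelial markers and lowered 1, raised 1 of 4 ductal markers, and lowered 2 of 7 lymphocyte markers and 1 of 2 plasma cell markers, while 0 of 4 neutrophil and 0 of 3 erythroid markers were called. In CCl4 + 4MU against CCl4, 4 of 7 hepatocyte markers were higher and 1 of 7 macrophage markers lower. The summed macrophage and monocyte markers went the other way, at 384 to 626 CPM in CCl4 + 4MU mice against 336 to 371 CPM in CCl4 mice. In CCl4 + siHAS2-LNP against CCl4, 1 of 7 hepatocyte markers was higher, and 3 of 6 stellate, 2 of 7 macrophage, 2 of 5 endothelial and 1 of 4 ductal markers were lower. The plasma cell genes Mzb1 and Tnfrsf17 had at most 3 counts in 22 and 23 of the 27 libraries. That list thus rests on Jchain, with 29 to 344 counts, and Sdc1, with 3501 to 11593 counts, alone. The part of these markers in the levels of the 9 genes was not tested.

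Some counts may be shared with genes on the other strand, since the strand setting of the counting is not stated. Exons of Fanca overlap Zfp276, those of Fanci overlap Polg, those of Fancd2 overlap Emc3 and Fancd2os, and those of Brca2 overlap N4bp2l1. In CCl4 against control the log2 fold change was -1.19 ± 0.25 for Zfp276 (adjusted p = 0.000843), 0.15 ± 0.18 for Polg (adjusted p = 0.539), -0.03 ± 0.12 for Emc3 (adjusted p = 0.894) and -1.26 ± 0.50 for N4bp2l1 (adjusted p = 0.0528), and Fancd2os was at 0 counts and not tested. Of the 4 partners tested, 0 were called higher with CCl4 by edgeR. Against CCl4 alone, edgeR called Zfp276 higher with 4MU (1.57 ± 0.26, adjusted p = 0.000706) and with siHAS2-LNP (1.07 ± 0.25, adjusted p = 0.00766). It also called N4bp2l1 higher with 4MU (1.47 ± 0.50, adjusted p = 0.0434) and with siHAS2-LNP (1.58 ± 0.51, adjusted p = 0.0381), but not Polg or Emc3. The part of these partners in the counts of Fanca and Brca2 was not tested.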

How the data were processed

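PolyA RNA of whole liver was sequenced as paired-end reads in 27 mice. The authors trimmed reads with Trimmomatic 0.39, aligned them with HISAT2 (version not given in the sources used here) to GRCm39 with Ensembl 105, and deposited raw read counts per gene from featureCounts, which left out multi-mapping reads. Pseudogene copies can therefore lose counts. From these counts, edgeR 4.0.16 (R 4.3.3) fitted 1 quasi-likelihood model over all 27 mice and 8 groups, with TMM scaling, and levels are CPM of the effective library size. Genes averaging under 10 counts per library were dropped, which left 14114, and p-values were adjusted by the Benjamini-Hochberg method over all of them, with 0.05 as the threshold. All 9 members passed this filter, some of them only through the mice with CCl4. Log2 CPM, as used for the correlations, had a prior count of 2. The fitted fold changes of edgeR kept its default prior count. The precision of low values is limited by counting error, and 3 counts were taken as the floor. Alternatives used DESeq2 1.42.0, limma 3.58.1 (voom with quality weights), other filters and scalings, a replicate block, only the compared groups, and 27 fits that each left out 1 mouse. The code was tested on simulated data. Positions and promoters came from GENCODE vM39, which matched 54749 of 55414 gene identifiers. The members and the gene lists were chosen with earlier results of these data known. From each list, up to 3 genes were named, those with the smallest summed rank of p over the 4 CCl4 effects, and Mki67, Fancd2os and the opposite-strand partners were named in addition. P-values rest on the spread between mice of a group, which edgeR estimated for each gene over all 8 groups together. For comparisons with the 2 mice given CCl4 alone, this spread comes largely from the other groups. Some genes and 1 promoter are not reported here.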

Additional observations from a re-analysis of the deposited data

Results flagged for a closer look

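In groups of 4 mice, the mouse farthest from the others was checked by its gap relative to the group's range (Dixon's test at 95%). Of 36 combinations of gene and group 6 passed, where 1.8 would be expected by chance, since about 5% of groups pass. CCl4 + siLuc-LNP mouse 4 accounted for 4 of them: Fanca at 7.96 CPM (gap ratio 0.846), Fanci at 8.17 CPM (0.945), Brca1 at 19.3 CPM (0.898) and Blm at 13.7 CPM (0.878). The 36 combinations share mice and are not independent. The other 2 were Fancd2 in CCl4 + 4MU mouse 3 at 2.29 CPM (0.836) and Brca2 in control mouse 4 at 8.62 CPM (0.834).

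The CCl4 change differed between mice with and without 4MU for 2 genes, by the interaction term of edgeR's quasi-likelihood test. It was -2.46 for Brca1 (adjusted p = 0.0217) and -4.71 for Exo1 (adjusted p = 0.0241), both on the log2 scale. Without CCl4 mouse 2 they were -1.81 (adjusted p = 0.18) and -4.08 (adjusted p = 0.116) by edgeR, in a fit where the lone CCl4 mouse was assumed to vary like the other groups.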

How the results depend on the processing

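The 7 genes called in CCl4 against control were called by every alternative tool, filter and scaling tried, and without each mouse in turn. The number of the 9 genes called ranged, over fits without 1 mouse, from 7 to 8 for CCl4 against control, 5 to 6 for CCl4 + 4MU against 4MU, 1 to 5 for CCl4 + siHAS2-LNP against siHAS2-LNP, 1 to 8 for CCl4 + 4MU against CCl4, 0 to 9 for CCl4 + siLuc-LNP against CCl4 and for CCl4 + siHAS2-LNP against CCl4, and 0 to 4 for the 4MU interaction. The comparison CCl4 + siLuc-LNP against CCl4 gave 6 genes with limma-voom and 5 without the low-count filter. Without that filter, CCl4 + siHAS2-LNP against CCl4 + siLuc-LNP gave 2, 4MU against control gave 1 (Blm), and the 4MU interaction gave 4, as it did with DESeq2. The cause was not tested. The replicate numbers do not pair the mice: deviations of same-numbered mice correlated between -0.32 and 0.21. With the replicate block CCl4 + siHAS2-LNP against siHAS2-LNP gave 2 genes in place of 6, and no other count changed. That comparison gave 4 with DESeq2 size factors or filterByExpr, 7 without the low-count filter and 8 with limma-voom or only the compared groups. CCl4 + 4MU against 4MU gave 7 with DESeq2, without that filter or with only the compared groups, and 8 with limma-voom.

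Among the fold changes given above, signs turned for Brca2 and Blm, none of them past the threshold. In comparisons given by counts alone other genes turned too: of CCl4 + 4MU against CCl4 + siHAS2-LNP 4 of the 9 log2 fold changes were above 0, and 1 without CCl4 + 4MU mouse 3. For CCl4 + siLuc-LNP against siLuc-LNP, Brca2 was 0.0092 with DESeq2, 0.0094 with its size factors or no filter, 0.0158 with filterByExpr and between -0.33 and 0.257 over fits without 1 mouse, and Blm was -0.0349 with the block and between -0.406 (without CCl4 + siLuc-LNP mouse 4) and 0.503 over such fits. For CCl4 + siHAS2-LNP against siHAS2-LNP, Brca2 was -0.0141 with DESeq2, -0.078 with limma-voom, -0.0115 with DESeq2 size factors, -0.0246 with no filter, -0.0226 with filterByExpr, -0.049 with the block, -0.00605 with only the compared groups and between -0.176 and 0.142 over fits without 1 mouse. For CCl4 + siHAS2-LNP against CCl4 + siLuc-LNP, limma-voom gave 0.226 for Brca2 and 0.289 for Blm, the block gave 0.00176 and 0.00844, and leaving out CCl4 + siLuc-LNP mouse 4 gave 0.277 and 0.446, and the lowest Brca2 value without 1 mouse was -0.243. The Blm interaction with 4MU was -0.169 without CCl4 mouse 1 and 0.657 without CCl4 mouse 2. Genes near the floor of 3 counts in mice without CCl4 (Fanci, Exo1, Bard1) have folds that the depth limits.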

Other observations

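Other repair pathways were called in both directions or in part. In CCl4 against control, edgeR called 3 of 11 non-homologous end joining genes higher and 2 lower (median log2 fold change 0.14). Prkdc, the kinase of this pathway, was at 15.9 against 8.52 CPM (0.90, standard error 0.20, adjusted p = 0.00108), and Polm, a gap-filling polymerase, was at 2.49 against 5.43 CPM (-1.13, standard error 0.27, adjusted p = 0.00213). Of 10 nucleotide excision repair genes 2 were higher and 3 lower (median -0.14): Ddb1, a damage sensor subunit, was at 342 against 166 CPM (1.04, standard error 0.19, adjusted p = 0.000171), and Xpa, which verifies damage, at 9.07 against 22.4 CPM (-1.30, standard error 0.28, adjusted p = 0.000967).

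Mismatch repair, which corrects replication errors, had 4 of 7 genes higher and 0 lower. Msh6 was at 32.7 against 9.68 CPM (1.76, standard error 0.25, adjusted p = 1.02e-05). In CCl4 + 4MU and in CCl4 + siHAS2-LNP against CCl4, which share the CCl4 mice, 4 of 7 were lower in each.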
